A study of Mus musculus with 20 samples.

Results

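Enteroendocrine cells are rare hormone-secreting cells of the gut epithelium, and 10 genes of their programme were followed in mouse colonoid cultures: the hormone genes Cck, Pyy, Gcg, Insl5 and Sct, the granule genes Chga and Chgb, the serotonin-synthesis gene Tph1 and the transcription factor genes Neurog3 and Neurod1. They were taken by symbol from a table of 35240 genes, each as the sum of its transcripts. The 20 libraries were of WT (C57BL/6) and Tnfr2-/- colonoids, the latter from mice that carry a targeted allele of Tnfrsf1b, the gene of TNF receptor 2, in every tissue (B6.129S2-Tnfrsf1b tm1Mwm/J). Colonic crypts were grown in Matrigel under Intesticult medium, passaged 5 times, filtered through a mesh and seeded without further treatment, and RNA was taken on days 1 to 3, on day 5 and on day 7 after the last passage (DPP, for days post-passage). Each genotype had 2 libraries on each day, coded M1 and M2 in the labels. The codes were read as mouse 1 and mouse 2, which the labels do not spell out, and the study's methods speak of biological replicates for the sequencing and of more mice than that per culture experiment. What is said of a mouse below rests on this reading, and the labels give no age. Per the study's methods, mesenchymal cells were also present in such cultures, so these are not purified epithelium.

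Enteroendocrine cells arise from crypt progenitors that transiently switch on Neurog3, which in turn acts ahead of Neurod1 as the cells mature. Mature cells store peptide hormones with chromogranins in dense-core granules. In the colon, L cells make proglucagon products, peptide YY and, in the distal part, insulin-like peptide 5, while enterochromaffin cells make serotonin. Cholecystokinin is better known from I cells of the small intestine and from neurons.

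Expression is given as normalised expression, namely TPM rescaled by the size factor of each library, a scale that accounts for transcript length and allows levels of different genes to be set side by side. Of the 10 genes, 6 had a mean of at least 1 over the 20 libraries and were tested, namely Cck (mean 229), Pyy (46.7), Chgb (9.66), Chga (4.30), Insl5 (3.63) and Gcg (1.06). The other 4 were below that mean and are described by level: Neurog3 (0.975), Tph1 (0.898), Sct (0.253) and Neurod1 (0.184). The ranges of neighbours in this order overlapped across libraries, from 20.4 to 529 for Cck, 0 to 271 for Pyy and 0.264 to 54.2 for Chgb. The order also changed with the group, since late WT libraries averaged 138 for Pyy and 71.1 for Cck, whereas late Tnfr2-/- libraries averaged 62.1 and 431. In bulk RNA, fewer cells of a type and less RNA per cell cannot be told apart.

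The libraries were alike in breadth, with 13007 to 13469 genes at 1 or more. Tnfrsf1b itself ran from 11.1 to 21.9 in WT libraries (median 14.3) and from 2.71 to 11.5 in Tnfr2-/- libraries (median 4.85), so the ranges met only at their ends. Epithelial markers (Epcam, Krt8, Cdh1, Vil1, Cldn7) summed to between 4986 and 8961 in every library. Fibroblast markers (10 genes, all detected in each group) summed to between 1242 and 8594. Of the 6 enteroendocrine markers, Chga, Chgb, Neurod1, Scgn, Insm1 and Pcsk1, only Chga and Chgb reached a mean of 1, so the defining programme was present at low level.

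The promoter windows of 4 genes are shown, chosen to hold a granule gene, L-cell hormone genes and the hormone gene of highest mean level. Each is the 250 bases before the RefSeq start on GRCm38.p6, read 5′ to 3′ on the gene's strand, and none overlaps an annotated exon. Capitals mark E-boxes (CANNTG, which reads the same class of motif on both strands), the class of site that basic helix-loop-helix factors such as Neurog3 and Neurod1 bind.
Chga (chr12:102554691-102554940, plus strand): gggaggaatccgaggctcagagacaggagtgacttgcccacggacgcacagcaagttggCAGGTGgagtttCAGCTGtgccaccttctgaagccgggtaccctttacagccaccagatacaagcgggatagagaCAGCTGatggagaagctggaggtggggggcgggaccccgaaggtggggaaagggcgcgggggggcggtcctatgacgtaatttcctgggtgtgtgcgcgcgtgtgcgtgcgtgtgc
Pyy (chr11:102107833-102108082, minus strand): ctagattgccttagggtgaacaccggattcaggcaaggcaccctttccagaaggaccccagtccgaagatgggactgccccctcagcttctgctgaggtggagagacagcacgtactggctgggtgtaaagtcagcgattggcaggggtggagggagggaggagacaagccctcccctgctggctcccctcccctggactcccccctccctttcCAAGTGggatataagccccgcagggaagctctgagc
Gcg (chr2:62483654-62483903, minus strand): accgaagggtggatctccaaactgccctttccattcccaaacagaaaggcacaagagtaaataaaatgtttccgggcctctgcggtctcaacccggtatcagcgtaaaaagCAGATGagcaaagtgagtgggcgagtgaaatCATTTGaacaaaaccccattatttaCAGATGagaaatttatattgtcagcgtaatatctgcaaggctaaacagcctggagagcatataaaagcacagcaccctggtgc
Cck (chr9:121495695-121495944, minus strand): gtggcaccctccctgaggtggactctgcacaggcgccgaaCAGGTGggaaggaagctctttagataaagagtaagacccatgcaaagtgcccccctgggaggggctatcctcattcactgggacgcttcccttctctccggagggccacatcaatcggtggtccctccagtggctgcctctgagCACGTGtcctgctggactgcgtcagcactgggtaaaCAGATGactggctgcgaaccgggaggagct

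Chga, Gcg and Cck each held 3 E-boxes and Pyy held 1. The form CAGATG, searched on both strands and counted among the E-boxes, lay 139 and 83 bases before the start of Gcg and 30 bases before that of Cck. It was found for 4 of the 10 genes, Insl5 and Sct being the others, against 14.4% of all windows. An E-box was found for 9 of the 10 genes, in 11 of their 13 listed windows, against 66.2% of all 32851 windows of this length. The half-site TGACG of the cyclic AMP response element was found for 4 genes, Chga, Chgb, Cck and Tph1, against 17.8% of all windows. The complete element TGACGTCA was found for Chgb, whose window overlapped an annotated exon and is not printed, against 1.55% of all windows. These matches describe the sequence and say nothing of binding.

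**Figure D1:**
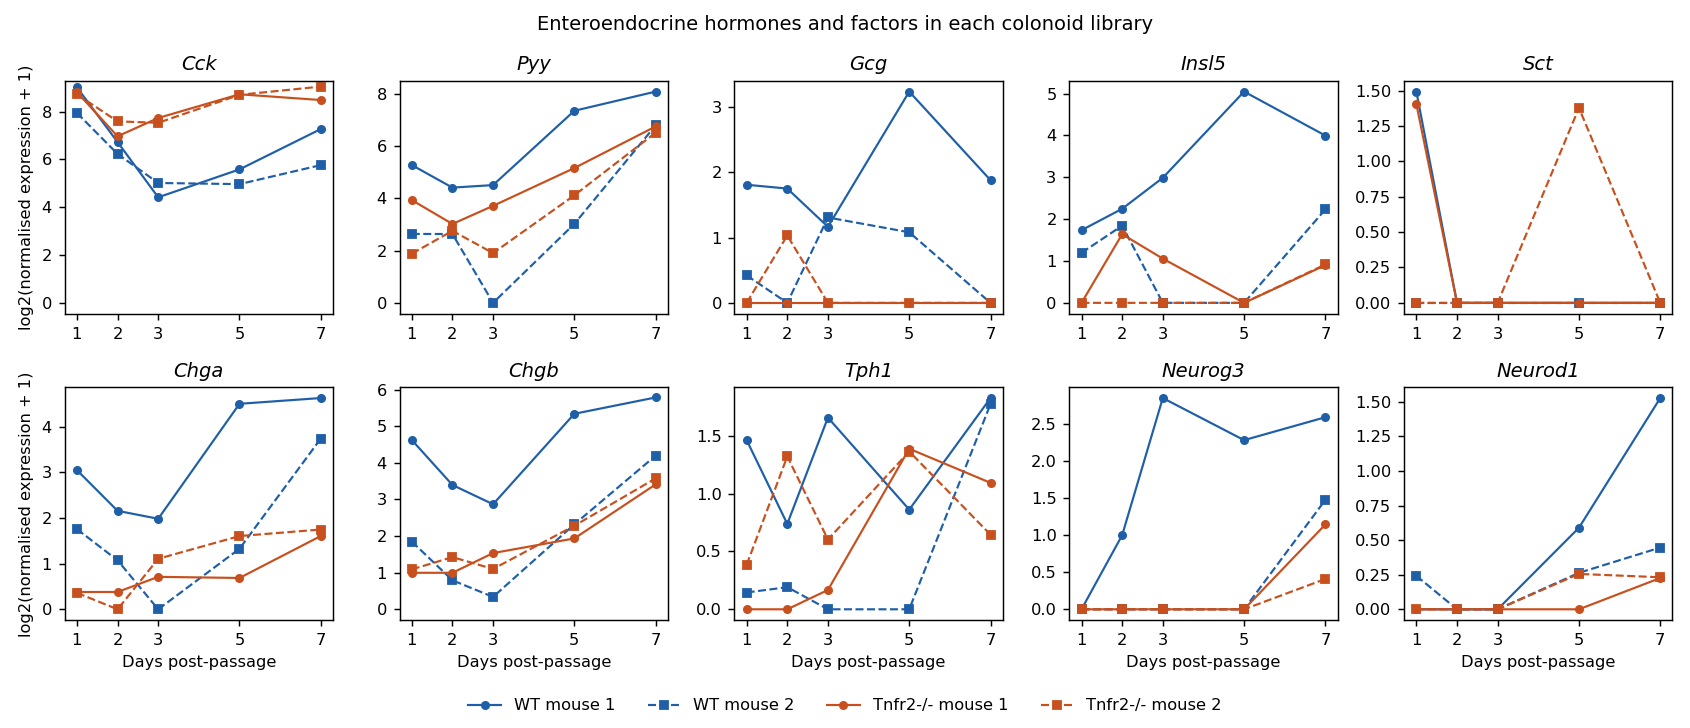
Normalised expression of the 10 genes on a log2(value + 1) scale (vertical axes, a separate scale for each gene) against days post-passage, with a line for each of the 4 mice (blue WT, orange Tnfr2-/-, solid mouse 1, dashed mouse 2). From 3 DPP on, both Tnfr2-/- lines of Cck lie above both WT lines, and WT mouse 1 lies highest for Chgb on all 5 days.

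Cck, the hormone gene with the highest mean over all 20 libraries, was higher in Tnfr2-/- than in WT cultures. In WT mouse 1 it measured 517, 105, 20.4, 47.0 and 154 at 1, 2, 3, 5 and 7 DPP, and in WT mouse 2 it measured 246, 74.1, 31.4, 30.3 and 53.3. In Tnfr2-/- mouse 1 it measured 449.6, 124, 212, 423 and 358, and in Tnfr2-/- mouse 2 it measured 422, 192, 184, 416 and 529. The genotypes overlapped on the first day only. All 6 Tnfr2-/- libraries of 3, 5 and 7 DPP exceeded all 6 WT libraries of those days, as did 1.37% of all tested genes.

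On the log2(value + 1) scale the genotype difference of Cck over all days was 1.94 ± 0.34 (SE, adjusted p = 0.00207, limma), with 7.6% of the 13539 tested genes called in that comparison (4.51% higher and 3.09% lower in Tnfr2-/- cultures). It was 1.34 ± 0.26 at the early days 1 to 3 (adjusted p = 0.0224, 1.2% of genes called) and 2.84 ± 0.32 at the late days 5 and 7 (adjusted p = 0.000235, 6.45% called). Late means were 71.1 ± 55.9 in WT and 431 ± 71.4 in Tnfr2-/- cultures (SD, n = 4 libraries from 2 mice). By day, Cck was called at 3 DPP (2.92, adjusted p = 0.0172), at 5 DPP (3.44, adjusted p = 0.00167) and at 7 DPP (2.25, adjusted p = 0.037), where 0.155%, 1.65% and 0.82% of genes were called. At 1 DPP (0.29, adjusted p = 0.987) and 2 DPP (0.80, adjusted p = 0.768) it was not called, against 0.0739% and 0.096% of genes. Taking the mean of each mouse first, 2 against 2, left the sizes as they were but ended the calls over all days (adjusted p = 0.119), late (0.196) and early (0.143). Without Tnfr2-/- mouse 2 the value over all days was 1.85 (adjusted p = 0.073), and the late value was 2.98 without Tnfr2-/- mouse 1 (adjusted p = 0.0701) and 2.71 without mouse 2 (0.106). The early call was also lost without either Tnfr2-/- mouse (1.39 and 1.28), without WT mouse 1 at 3 DPP, without WT mouse 2 at 1 or 2 DPP, and without any early Tnfr2-/- library except that of mouse 1 at 2 DPP, with values of 1.16 to 1.37. The calls by day ended when only the libraries of that day were fitted (adjusted p = 0.341, 0.232 and 0.359) and without either Tnfr2-/- mouse. Dropping any library of 3 DPP ended the call of that day (2.62 to 3.22). At 7 DPP the value was 1.50 without WT mouse 2 (adjusted p = 0.115), 2.53 without Tnfr2-/- mouse 1 (0.161) and 1.97 without Tnfr2-/- mouse 2 (0.265) of that day, and the call ended as well without any Tnfr2-/- library of 1, 3 or 5 DPP (adjusted p of 0.0569 to 0.0592).

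The course of Cck after passage was compared within each genotype and between genotypes. Between 1 and 3 DPP it fell by 3.77 on the log2 scale in WT cultures (SE 0.45, adjusted p = 0.000936), where 2.71% of genes were called, and the Tnfr2-/- value was −1.14 (adjusted p = 0.347, 0.318% of genes called). The WT call was lost at an unchanged size without either Tnfr2-/- mouse (adjusted p = 0.0736 and 0.0733). This pair of days was picked after the values had been seen, and the difference between the genotypes over it was not tested. For Cck, late minus early was −0.29 in WT mouse 1, −1.03 in WT mouse 2, 0.77 in Tnfr2-/- mouse 1 and 0.93 in Tnfr2-/- mouse 2, so both mice of a genotype lay on the same side of 0. The fitted late-against-early value was −0.66 ± 0.29 in WT (adjusted p = 0.125) and 0.85 ± 0.29 in Tnfr2-/- cultures (adjusted p = 0.0534). A fit that blocked on the mouse called the Tnfr2-/- value (adjusted p = 0.035), which mouse means did not (0.0882). It was also called with the replicate number as a fixed block (0.0241), with only the Tnfr2-/- libraries fitted (0.00551) and with a mean of at least 5 (0.0471). Subtracting the early from the late genotype effect gave 1.51 ± 0.41, which was not called (adjusted p = 0.181). Leaving out WT mouse 1 gave 1.88 and a call (adjusted p = 0.0278). None of the 6 tested genes was called in that comparison, in which 0.148% of all genes were, and 1 of the 6, Cck, had an unadjusted p under 0.05.

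**Figure D2:**
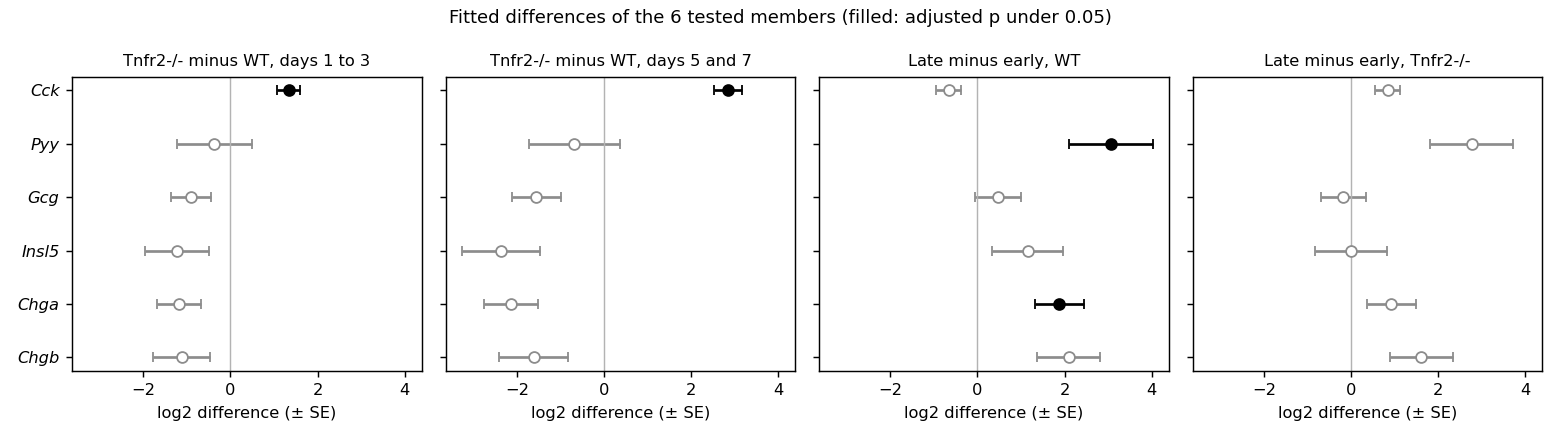
Fitted log2 differences (horizontal axes, with standard errors) of the 6 tested genes for Tnfr2-/- minus WT at early and at late days and for late minus early in each genotype, with filled points where the adjusted p was under 0.05. Cck stands alone to the right of 0 in both genotype panels, at 1.34 and 2.84.

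The Cck reads were spread over transcripts rather than tied to 1 of them. The gene lies at chr9:121489824-121495694 (GRCm38, minus strand), and 3 protein-coding transcripts carried nearly all of its expression: Cck-205 held 38.6%, Cck-201 held 35.7% and Cck-202 held 24.95% of the mean. Cck-205, for instance, averaged 32.6 in late WT and 179 in late Tnfr2-/- libraries, and Cck-201 averaged 23.8 and 139. Their shares of the gene moved less than their levels, for Cck-205 from 45.9% in late WT to 41.5% in late Tnfr2-/- cultures. These transcripts share exons, and how reads were divided among them rests on the authors' quantification.

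**Figure D3:**
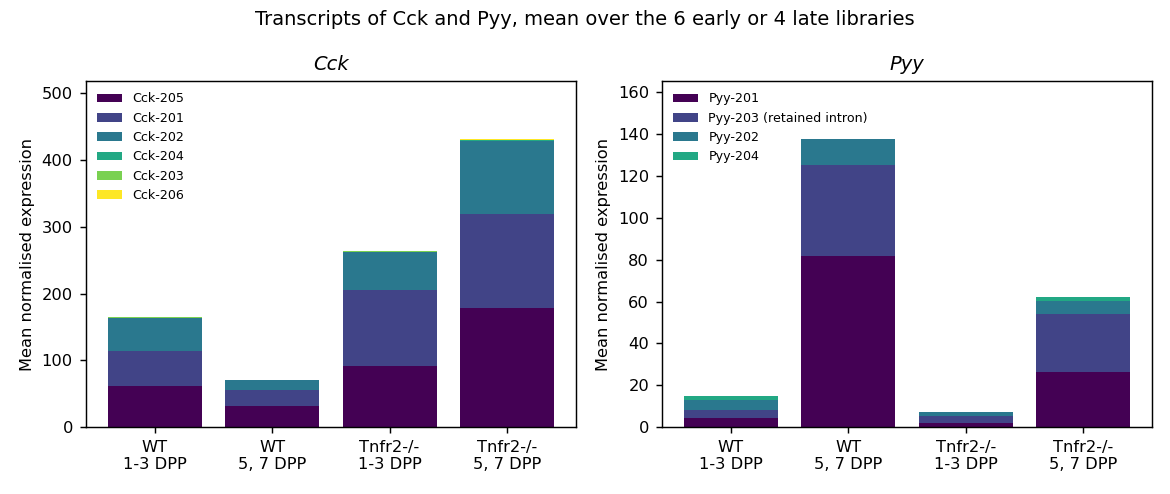
Mean normalised expression (vertical axes, from 0) of each annotated transcript of Cck and Pyy, stacked to the gene's total, over the 6 early or 4 late libraries of each genotype. The 3 main Cck transcripts are all taller in late Tnfr2-/- than in late WT libraries, where the gene totals average 431 and 71.1.

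Pyy, which encodes the L-cell hormone peptide YY, had the next highest mean over all libraries and rose late after passage in WT cultures, with no called genotype difference. At 7 DPP it stood above Cck in both WT mice. In WT mouse 1 it measured 37.8, 20.3, 21.8, 162 and 271 at the 5 days, and in WT mouse 2 it measured 5.22, 5.22, 0, 7.13 and 110.0. In Tnfr2-/- mouse 1 it measured 14.3, 7.11, 12.1, 34.8 and 107, and in Tnfr2-/- mouse 2 it measured 2.68, 5.76, 2.74, 16.4 and 90.5. Each of the 4 mice had its highest value at 7 DPP. Late against early was 3.07 ± 0.96 in WT (adjusted p = 0.0387) and 2.77 ± 0.96 in Tnfr2-/- cultures (adjusted p = 0.0578), and these comparisons called 20.1% and 20.3% of all genes. A fit with a correlated block for the mouse called the Tnfr2-/- difference (adjusted p = 0.0255), and mouse means did not (0.0683). The Tnfr2-/- difference was also called with the replicate number as a fixed block (0.00128) and with only the Tnfr2-/- libraries fitted (0.0054). The WT call was lost on mouse means (0.0671), without the filter (0.077), with a pseudocount of 0.1 (0.0598), in a robust fit (0.0523) and with only the WT libraries fitted (0.138). Without WT mouse 1 at 5 DPP it was 1.99 (adjusted p = 0.194), without that mouse at 7 DPP 2.75 (0.138), and without WT mouse 2 at 1, 2 or 3 DPP 2.32 to 2.77. It was lost at an unchanged size without either Tnfr2-/- mouse or any Tnfr2-/- library of 2 or 7 DPP (adjusted p of 0.0505 to 0.138). The genotype difference over all days was −0.50 ± 0.60 (adjusted p = 0.674), and it moved from 0.96 without WT mouse 1 (adjusted p = 0.292) to −1.95 and a call without WT mouse 2 (0.00418). The retained-intron transcript Pyy-203 held 34.9% of the gene's mean, beside 50.5% for the protein-coding Pyy-201, which shares exons with it.

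Chga and Chgb encode granins, which pack hormones into granules. Of the pair, Chga was called higher late than early in WT cultures and lower in Tnfr2-/- than in WT cultures, while Chgb passed neither test. Chga measured 7.28, 3.46, 2.95, 21.6 and 23.7 in WT mouse 1 and 2.38, 1.10, 0, 1.51 and 12.4 in WT mouse 2. It measured 0.300, 0.301, 0.637, 0.609 and 2.04 in Tnfr2-/- mouse 1 and 0.284, 0, 1.15, 2.04 and 2.36 in Tnfr2-/- mouse 2. The 2 highest Tnfr2-/- values lay below both WT values of 7 DPP, while the groups overlapped at 3 and 5 DPP. Chga averaged 7.64 in WT and 0.972 in Tnfr2-/- libraries, so it passed the filter only through the group in which it was high. Over all days the genotype difference of Chga was −1.56 ± 0.39 (adjusted p = 0.0225). The call did not hold on mouse means (adjusted p = 0.438) or with a pseudocount of 0.1 (0.0548). It also ended without WT mouse 1, where the value was −0.72 (adjusted p = 0.299), without Tnfr2-/- mouse 1 (−1.46, 0.21) and without Tnfr2-/- mouse 2 (−1.67, 0.186), and without WT mouse 2 it was −2.41.

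Late against early, Chga rose by 1.88 ± 0.56 in WT cultures (adjusted p = 0.0322), and the Tnfr2-/- value was 0.92 ± 0.56 (adjusted p = 0.284). With only the Tnfr2-/- libraries fitted, the latter was called (adjusted p = 0.0329). The WT call was lost without WT mouse 1 at 5 DPP (1.08, adjusted p = 0.16) or at 7 DPP (1.66, 0.126), and without WT mouse 2 at 1, 2 or 3 DPP (1.55 to 1.70). It was lost as well without either Tnfr2-/- mouse (adjusted p = 0.135 for each), on mouse means (0.0671), without the filter (0.0615), with a pseudocount of 0.1 (0.0705) and with only the WT libraries fitted (0.134). Chga passed the filter only through WT libraries, which limits its late genotype tests too. The late genotype difference of Chga was −2.14 ± 0.62 (adjusted p = 0.0574), and other fits gave −1.12 to −3.15. It was called without WT mouse 2 (−3.15, adjusted p = 0.000959), without that mouse at 5 DPP (−2.93, 0.00453), without either WT library of 3 DPP (0.0457 and 0.0451), after rescaling libraries to an equal total (0.0463) and with the replicate number as a fixed block (0.0291).

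Chgb measured 23.7, 9.52, 6.30, 39.5 and 54.2 in WT mouse 1 and 2.61, 0.731, 0.264, 3.995 and 17.3 in WT mouse 2. It measured 0.995, 0.996, 1.90, 2.83 and 9.65 in Tnfr2-/- mouse 1 and 1.13, 1.68, 1.15, 3.86 and 10.9 in Tnfr2-/- mouse 2. All 4 mice reached their highest Chgb at 7 DPP, where both WT values stood above both Tnfr2-/- values, as for 23.3% of tested genes. Its late-against-early difference was 2.10 ± 0.73 in WT (adjusted p = 0.0566) and 1.61 ± 0.73 in Tnfr2-/- cultures (adjusted p = 0.141). When libraries of a mouse were blocked, the WT difference was called (adjusted p = 0.0221), but on mouse means it was not (0.0671). With the replicate number as a fixed block both differences were called (7.55e-05 in WT, 0.000383 in Tnfr2-/-). With only the Tnfr2-/- libraries fitted, the Tnfr2-/- difference was called (0.00106), but on mouse means it was not (0.0683). The genotype difference over all days was −1.32 ± 0.47 (adjusted p = 0.1), and it was −0.06 without WT mouse 1. It was called without WT mouse 2 (−2.57, adjusted p = 6.66e-05), without that mouse at 2 or 3 DPP (−1.53 and −1.57, 0.0467 and 0.0368) and with the replicate number as a fixed block (0.0398). The early value was −1.12 (adjusted p = 0.52), against 0.20 without WT mouse 1 and −2.44 without WT mouse 2 (adjusted p = 0.747 and 0.000676).

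Gcg and Insl5, further L-cell hormone genes, were found mainly in WT mouse 1. Gcg, the proglucagon gene, measured 2.51, 2.37, 1.24, 8.43 and 2.68 in WT mouse 1 and 0.339, 0, 1.48, 1.12 and 0 in WT mouse 2. In Tnfr2-/- cultures it was listed at 0 in 9 of 10 libraries, and mouse 2 held 1.05 at 2 DPP. Gcg reached the mean needed for testing only through WT libraries, which averaged 2.02 against 0.105 in Tnfr2-/- libraries, so it was tested only because of the group in which it was high. The genotype difference over all days was −1.16 ± 0.35 (adjusted p = 0.0479). That call was lost when libraries of a mouse were blocked (adjusted p = 0.0887), on mouse means (0.496) and without the filter on low genes (0.0687). It was also lost in 18 of 24 fits that left out a library or a mouse, all but those without WT mouse 2, wholly or at 1, 2, 5 or 7 DPP, and without Tnfr2-/- mouse 2 at 2 DPP. The value itself was −0.46 without WT mouse 1 and −1.87 without WT mouse 2.

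Insl5 measured 2.33, 3.75, 6.93, 32.1 and 15.0 in WT mouse 1 and 1.29, 2.59, 0, 0 and 3.7 in WT mouse 2. In Tnfr2-/- mouse 1 it measured 0, 2.12, 1.08, 0 and 0.867, and in mouse 2 it was listed at 0 except for 0.889 at 7 DPP. The genotypes overlapped at 3 and 5 DPP, where WT mouse 2 was at 0. Insl5 averaged 6.76 in WT and 0.495 in Tnfr2-/- libraries, and it too was tested only because of the group in which it was high. Over all days the difference was −1.68 ± 0.52 (adjusted p = 0.058), and −0.60 without WT mouse 1. It was called without WT mouse 2 (−2.75, adjusted p = 0.0019), without that mouse at 3 or 5 DPP (−1.94 and −1.98, 0.0237 and 0.0191), after rescaling libraries to an equal total (0.0476), with the replicate number as a fixed block (0.0193) and, at the threshold, with day as a linear term (0.05). Sct, the secretin gene, was listed at 0 in 17 of 20 libraries, and its 3 values above 0 were 1.81 in WT mouse 1 and 1.65 in Tnfr2-/- mouse 1 at 1 DPP and 1.60 in Tnfr2-/- mouse 2 at 5 DPP.

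Neurog3, the factor that commits progenitors to the lineage, measured 0, 1.00, 6.24, 3.88 and 5.05 in WT mouse 1. WT mouse 2 and both Tnfr2-/- mice had it only at 7 DPP, at 1.79, 1.22 and 0.329. Neurod1, which follows Neurog3 in the lineage, was listed at 0 in every library of 2 and 3 DPP. At the late days it ran from 0.201 to 1.88 in WT and from 0 to 0.194 in Tnfr2-/- libraries. The late groups thus missed overlap only narrowly, with both bounds near 0. Of the tested genes, a set without Neurod1, 6.07% had all late Tnfr2-/- libraries below all late WT libraries. The highest Neurod1 value was again that of WT mouse 1 at 7 DPP. Tph1, which encodes the first enzyme of serotonin synthesis outside the brain, measured 1.76, 0.669, 2.16, 0.818 and 2.55 in WT mouse 1 and 0.106, 0.142, 0, 0 and 2.42 in WT mouse 2. In Tnfr2-/- libraries Tph1 lay between 0 and 1.62, and at 7 DPP both (1.13 and 0.564) were below both WT libraries, whereas at 5 DPP both (1.62 and 1.58) were above them. In a fit without the filter, none of these 4 genes was called between genotypes over all days (adjusted p = 0.209 for Neurog3, 0.351 for Neurod1, 0.774 for Tph1 and 0.767 for Sct). Late against early in WT, that fit called Neurod1 (0.67, adjusted p = 0.0214) and no other of the 10 genes. It called 2424 of all 22550 genes there, against which 1 of 10 shows nothing particular to these genes. Neurod1 lay under 1 in 19 of 20 libraries, so its call rests on values near 0. Between the WT mice, the late-minus-early difference of Neurod1 was larger for mouse 1 (1.06) than for mouse 2 (0.27). Fits on mouse means or with a mouse left out did not include Neurod1.

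The spread between the WT mice ran through most of these genes. Chga, Chgb, Pyy, Insl5 and Tph1 were higher in WT mouse 1 than in WT mouse 2 on all 5 days. So were 8.84% of tested genes, a set without Tph1. The mean log2 difference between the WT mice was 2.91 for Pyy, 2.50 for Chgb, 2.15 for Insl5 and 1.68 for Chga, against 0.62 for Cck. Between the Tnfr2-/- mice it was 1.08 for Pyy and −0.12 for Chgb. Markers of other secretory cells moved alongside. Goblet markers (6 genes) summed to 350.0, 97.6, 167, 1326 and 1025 in WT mouse 1 and to 26.8, 3.30, 2.75, 112 and 471 in WT mouse 2, and in Tnfr2-/- libraries they ranged from 3.46 to 176.5. Deep secretory markers (4 genes) ranged from 7.33 to 1157 in WT and from 10.1 to 186 in Tnfr2-/- libraries. Their part in the granin and hormone values was not tested.

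Likeness across the 20 libraries set Chga and Cck apart. The tested genes with the highest Pearson r to Chga on the log2 scale were Chgb (0.934), Ddc (0.912), Lyz1 (0.896), Plcl2 (0.895) and 5330417C22Rik (0.8898). Those with the highest r to Cck were Il1rl1 (0.9498), Penk (0.930), Bdkrb2 (0.907), Slc14a1 (0.905) and Fxyd5 (0.902). The r between Chga and Cck was −0.19. Chga had an r of 0.888 with the summed goblet markers and −0.49 with the summed fibroblast markers, whereas Cck had −0.05 and 0.56. These values describe 20 libraries that share 4 mice and 5 days.

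**Figure D4:**
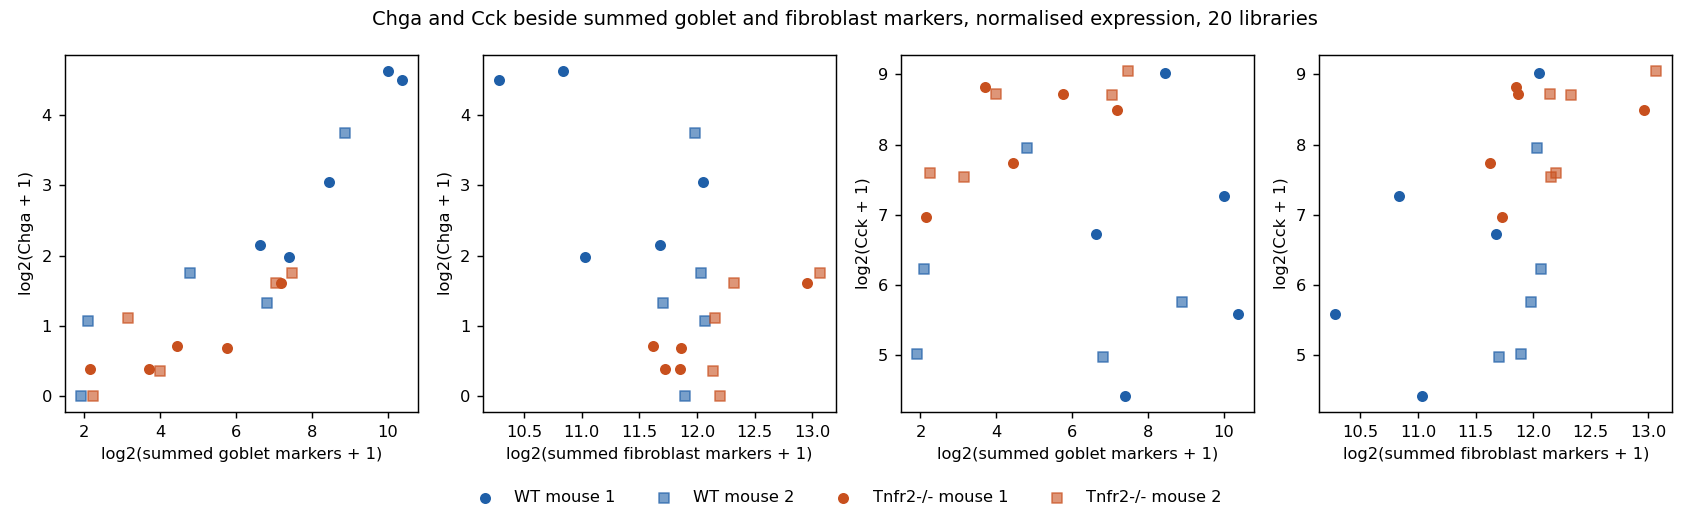
Chga (left pair) and Cck (right pair) against the summed goblet or fibroblast markers of the same library, all as log2(normalised expression + 1), with 1 point per library coloured by genotype and shaped by mouse. Chga climbs with the goblet sum (r = 0.888), and Cck spreads widely over it (r = −0.05).

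Across libraries the summed fibroblast and immune markers had an r of 0.56 and 0.646 with Cck, below the 5 genes named above. Col1a1, a fibroblast marker, had 0.13. In WT mouse 1 the fibroblast sum and Cck both fell from 1 to 3 DPP (4247 to 2092 and 517 to 20.4). In Tnfr2-/- mouse 1 the sum rose from 3728 to 7954 between 5 and 7 DPP, while Cck went from 423 to 358. At the late days the fibroblast sum was 1242 to 4051 in WT and 3728 to 8594 in Tnfr2-/- libraries. Of the 10 fibroblast markers 2, Dcn and Vim, were called higher in Tnfr2-/- cultures at those days, beside 6.45% of all tested genes. On mouse means neither was (adjusted p = 0.127 and 0.262). None of the 10 was at 0 throughout a genotype. Immune markers (6 genes, r = 0.646 with Cck) summed to 8.60 to 16.8 in late WT and 19.5 to 45.1 in late Tnfr2-/- libraries. Nearly all of that sum was Cd68, a macrophage gene, which was called higher late (7.12 to 15.8 against 19.0 to 42.5) but not on mouse means (adjusted p = 0.204). Adgre1, a defining macrophage gene, was listed at 0 in all 10 WT and in 9 of 10 Tnfr2-/- libraries. Markers of neurons and glia, another place where Cck is made, summed to at most 10.4 in any library. The part of fibroblast and immune content in the Cck result was not tested.

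Other genes of the programme were taken from lists. Apart from Uchl1 over all days, which was not looked up on mouse means, none of the calls given for them held there. On mouse means limma called 7 of 13539 genes over all days, 3 early, and 0 late and late against early in either genotype. An unadjusted p under 0.05 was found for 1522, 1113, 1859, 4066 and 3997 genes in the same order. Of 19 enteroendocrine transcription factors, 7 reached a mean of 1. Of these, Sox4 and Etv1 were called higher in Tnfr2-/- cultures over all days (0.48 and 0.79, adjusted p = 0.0246 and 0.0486), and none was called lower, beside 4.51% and 3.09% of all tested genes. Sox4, which also acts in progenitors outside this lineage, rose late in WT (1.25, adjusted p = 0.000348) and in Tnfr2-/- cultures (1.63, adjusted p = 7.21e-05), as did Foxa1 (0.72 and 0.87), in comparisons that called 20.1% and 20.3% of all tested genes. Insm1, a factor of the committed lineage, ran from 0 to 1.41 in WT and from 0 to 0.297 in Tnfr2-/- libraries, and Pax4 was listed at 0 in all 20. The median difference of the 7 over all days was 0.10, against −0.03 for all genes.

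Of 20 genes for granules, prohormone processing and amine handling, 8 were tested. Ptprn, a granule membrane protein, was higher in Tnfr2-/- cultures over all days (1.21, adjusted p = 0.0134) and late (2.06, adjusted p = 0.00355), where its late values were 1.21 to 11.2 in WT and 17.0 to 32.6 in Tnfr2-/- libraries. Cpe, carboxypeptidase E, was higher over all days (0.54, adjusted p = 0.0225). Slc18a1, a vesicular monoamine transporter, was lower late (−1.45, adjusted p = 0.0112), and Ddc, which makes serotonin from its precursor, rose late in WT (1.47, adjusted p = 0.0395). Of the 8, 2 were called higher and 0 lower over all days (4 had an estimate below 0), beside 4.51% and 3.09% of all tested genes, and 1 was called each way late, where 6.45% were called. The median over all days was 0.04. The prohormone convertase gene Pcsk1 lay between 0 and 4.46 and was not tested.

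Of 12 nutrient and stretch sensors, 3 were tested, and Trpa1, an irritant-sensing channel, was called lower in Tnfr2-/- cultures over all days (−0.89, adjusted p = 0.0367) and early (−1.41, adjusted p = 0.0137). It fell by 1.57 late against early in WT cultures (adjusted p = 0.00215). Over all tested genes 3.09% were called lower over all days, 1.2% were called early and 20.1% late against early in WT. Of 9 further gut peptides, 2 were tested and neither was called between genotypes over all days by limma (Ghrl, the ghrelin gene, had an unadjusted p of 0.0449), and Sst, the somatostatin gene, appeared in 1 library, at 0.858. None of the 13 receptor genes for the products of these genes reached a mean of 1.

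In the study's curated list of 50 enteroendocrine genes, which includes several of the genes above, 21 were tested. Over all days 4 were called higher in Tnfr2-/- cultures (Cck, Ptprn, Uchl1 and Etv1) and 2 lower (Chga and Gcg), beside 4.51% and 3.09% of all tested genes. Both lower genes passed the filter only through WT libraries, so the count of 2 is a description. The list's median was −0.17, against −0.03 over all genes. Late against early in WT, genes of the list called higher included Bex2 (1.62), Cldn14 (1.51), Chga, Pyy and 5330417C22Rik (1.91), and Etv1 was called lower (−0.96). In Tnfr2-/- cultures Cldn14 (1.63) was called higher. Across the 6 tested genes of the set described here, the count called was 3 over all days (Cck, and Chga and Gcg with the limit just given), 1 late and 1 early, beside 7.6%, 6.45% and 1.2% of all tested genes. Late against early it was 2 in WT and 0 in Tnfr2-/- cultures, where limma gave 3 genes an unadjusted p under 0.05. These comparisons called 20.1% and 20.3% of all tested genes, against which counts of 2 and 0 among 6 show nothing particular to these genes.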

How the data were processed

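RNA was extracted with the Direct-zol kit, and Illumina Stranded mRNA libraries were read single-end on a NextSeq instrument. Per the submitters' processing notes, CASAVA, kallisto and sleuth were used with build mm10. The deposited signal of each transcript is its TPM after division by a library size factor, as made by the authors, and libraries sum to between 900655 and 1111080. Read depth per library is not kept in them, so no counting interval is given. The authors' own columns in that table (p-values, q-values, test statistics, means and variance terms of a genotype test) were not used.

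Of 113974 lines, 781 repeats with identical values were dropped, and values were summed per gene symbol. The 199 transcripts without a gene held at most 0.0989% of a library and were left out. Values were tested as log2(value + 1) for the 13539 genes with a mean of at least 1. Because of the pseudocount, differences of low genes are understated. limma 3.58.1 in R 4.3.3 was used with its trend option, adjusting over all tested genes by Benjamini-Hochberg, with calls at an adjusted p under 0.05. Day as a factor plus genotype gave the effect over all days, and other comparisons from means of the 10 groups. The fit over all days was also run on simulated data whose libraries were independent. That run held no mouse effect, so it cannot show how shared mice affect the p-values. The plan had assumed TPM, and the test for normalised values was kept for the signal.

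The labels' descriptions code each library M1 or M2. The codes were read as the mouse, so that libraries of the same number within a genotype were taken as 1 animal on different days, but the labels do not say so. Their deviations from the group means correlated at 0.0997 to 0.307 in WT and at −0.0511 to 0.08 in Tnfr2-/- cultures. If that reading holds, genotype p-values that take them as independent may be too small. If it does not, the blocks and mouse means join libraries that share only a number. The genes and lists were chosen with earlier results of these data known. Named genes were all 10 members, the called genes of each list (up to 6), Insm1, Pax4, Pcsk1 and Sst, and the 5 genes most like Chga and Cck. Some genes of these lists are not reported here. Promoter windows and motif shares came from RefSeq on GRCm38.p6, where all 10 genes matched by symbol, and gene positions from GENCODE on GRCm38.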

Additional observations from a re-analysis of the deposited data

Results flagged for a closer look

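Of 36 gene, genotype and phase groups tested, 8 held a library whose gap to the nearest other library exceeded Dixon's limit for the group's range. That limit is made for normally distributed values. These groups pool days and hold many values of 0, so the count cannot be set against a chance rate. Most of the 8 are genes listed at 0 in the rest of the group, where any value above 0 is flagged. In early libraries these were Gcg at 1.05 in Tnfr2-/- mouse 2 at 2 DPP, Sct at 1.81 in WT mouse 1 and at 1.65 in Tnfr2-/- mouse 1 at 1 DPP, and Neurod1 at 0.183 in WT mouse 2 at 1 DPP. In late libraries Sct stood at 1.60 in Tnfr2-/- mouse 2 at 5 DPP. The others were Tph1 at 1.50 in Tnfr2-/- mouse 2 at 2 DPP (next 0.519), Neurog3 at 6.24 in WT mouse 1 at 3 DPP (next 1.00), and Neurod1 at 0 in Tnfr2-/- mouse 1 at 5 DPP, below the 0.170 of the nearest late library.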

How the results depend on the processing

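The cause of each change below was not tested. The number of the 6 tested genes called over all days was 3, and it was 1 with a mean of at least 5, 0 on mouse means and 5 with the replicate number as a fixed block. Smaller moves of this count, from calls of Chga, Gcg or Insl5 gained or lost in other fits, are given with those genes above. For the late genotype effect the count was 1, and it was 2 after rescaling libraries to an equal total, 2 with the fixed block and 0 on mouse means, and the early count of 1 went to 0 on mouse means. For late against early in WT the count of 2 became 0 with a pseudocount of 0.1, on mouse means and with only the compared libraries, and 1 with a mean of at least 5 and in a robust fit without trend. Without the filter none of the 6 was called and 1 of the 10 genes was, Neurod1. In Tnfr2-/- cultures the count of 0 became 1 with a mean of at least 5, 2 with the mouse as a correlated block, 3 with the fixed block and 4 with only the compared libraries. Apart from the Gcg call over all days and late against early Chgb in WT and Cck and Pyy in Tnfr2-/- cultures, the correlated block changed no call of the 6 genes over the early, late or all days. The counts of 1 at 3, 5 and 7 DPP became 0 with only the compared libraries, and the last also without the filter and in the robust fit.

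Leaving out each library or mouse in turn gave counts of 0 to 6 over all days, 0 to 5 late, 0 to 5 early, 0 to 1 for the late-early difference of the genotype effect, 0 to 4 for late against early in WT and 0 to 4 in Tnfr2-/- cultures. By day they were 0 to 1 at 1, 2 and 3 DPP, 0 to 5 at 5 DPP and 0 to 4 at 7 DPP. Single values that changed sign in these fits had not been called: for the genotype difference Cck at 1 DPP (−0.25 to 0.82), Pyy over all days (−1.95 to 0.96), late (−2.08 to 0.73) and early (−1.86 to 1.11), and Chgb early (−2.44 to 0.20). For the late-early difference of the genotype effect these were Pyy (−1.38 to 0.78), Chgb (−1.24 to 0.27) and Insl5 (−2.41 to 0.12), and for late against early Insl5 in WT (−0.11 to 2.41), Insl5 in Tnfr2-/- cultures (−0.45 to 0.46) and Gcg in WT (−0.065 to 1.01). With a pseudocount of 0.1 the early Pyy genotype difference was 0.05. With 2 libraries per genotype and day and no read depth per library, values of a few units rest on few reads.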
